A study of Homo sapiens with 3 samples.

Results

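The genes of the long arm of chromosome 7 between 90 and 150 Mb (hg19), the stretch that holds MET, were compared between H1975 and its osimertinib-resistant derivatives OR1 and OR2. H1975 (NCI-H1975) is an established non-small cell lung cancer line sensitive to osimertinib, and per the study its EGFR carries an activating and a gatekeeper mutation. OR1 and OR2 were derived from it separately, by osimertinib doses raised stepwise to 2 μmol/L over 4 months. RNA of each line was hybridized to 1 single-colour Agilent array, so there was no replicate and no test, and every value below describes 3 arrays. Members were genes with a probe on chromosome 7 whose lower coordinate lay between 90000000 and 150000000 and that was well above background on at least 1 array; the brightest probe stood for each gene. This left 459 genes out of 22340 measured on the whole array, with 690 on the rest of chromosome 7 and 21191 on the other chromosomes. The stretch was chosen by its ratios on these same arrays, in which its genes were lower in OR1 and OR2, so that shift is a description and supports nothing.

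The array software counted a spot as well above background when its signal exceeded the background by a set margin. Of 848 gene names with a probe in the stretch, 389 passed on no array and are not members. Of the members, 374 passed on all 3 arrays. A member that passed through H1975 alone, as 26 did, could only be lower in the resistant lines. Intensities are given as multiples of each array's 75th percentile (scaled intensity), and a ratio is the quotient of 2 scaled intensities of the same probe. With a dim side the ratio is only a limit, marked by "at least" or "at most"; 46 members in OR1 and 34 in OR2 have such an upper limit. The array software also estimates an error per spot. Propagated to a log2 ratio it gave a technical SD with a median of 0.205 over the members in both lines, which leaves out variation between cultures. A lower intensity in a culture cannot be told apart between fewer cells that make a transcript and less of it per cell.

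This stretch holds receptors and kinases of growth factor signaling. MET encodes the receptor of hepatocyte growth factor, a tyrosine kinase whose amplification is a known route of resistance to EGFR inhibitors. BRAF encodes a kinase of the ERK pathway, and CDK6 a cyclin-dependent kinase of the G1 phase. The caveolin genes CAV1 and CAV2 lie near MET, both on its lower-coordinate side. The stretch further carries imprinted genes, aldo-keto reductases and clusters of zinc finger genes.

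The promoters of 5 members are shown to mark the kinds of pattern described below, as given by the brightest probe: MET, 2 members with low ratios in both resistant lines (LAMB1 and IRF5), 1 with a high ratio in both (GNG11) and 1 whose level was close to even on all arrays (AKR1B1). The next LAMB1 probe was close to even in OR1 (ratio 0.963) and had 0.566 in OR2. Each promoter is the 250 bases before the RefSeq gene start in GRCh38.p14, read 5′ to 3′ along the gene, with CpG dinucleotides in capitals. They lie at chr7:116671946-116672195 (+ strand), chr7:108003162-108003411 (- strand), chr7:128937677-128937926 (+ strand), chr7:93921485-93921734 (+ strand) and chr7:134459101-134459350 (- strand), in that order.
MET: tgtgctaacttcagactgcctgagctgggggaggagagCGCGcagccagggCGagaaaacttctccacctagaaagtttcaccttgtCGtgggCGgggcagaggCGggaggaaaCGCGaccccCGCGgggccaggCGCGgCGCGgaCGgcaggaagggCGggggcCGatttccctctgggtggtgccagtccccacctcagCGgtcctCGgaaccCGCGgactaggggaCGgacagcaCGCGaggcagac
LAMB1: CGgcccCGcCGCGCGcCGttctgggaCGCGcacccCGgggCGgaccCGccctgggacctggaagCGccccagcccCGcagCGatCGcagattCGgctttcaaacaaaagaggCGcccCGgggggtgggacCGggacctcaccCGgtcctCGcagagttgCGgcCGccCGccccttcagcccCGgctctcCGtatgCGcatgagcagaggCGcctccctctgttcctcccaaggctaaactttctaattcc
IRF5: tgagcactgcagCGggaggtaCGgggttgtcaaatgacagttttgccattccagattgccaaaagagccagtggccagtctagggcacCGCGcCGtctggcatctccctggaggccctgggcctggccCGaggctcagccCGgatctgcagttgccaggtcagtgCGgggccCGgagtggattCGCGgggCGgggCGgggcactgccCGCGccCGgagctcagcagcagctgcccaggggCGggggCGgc
GNG11: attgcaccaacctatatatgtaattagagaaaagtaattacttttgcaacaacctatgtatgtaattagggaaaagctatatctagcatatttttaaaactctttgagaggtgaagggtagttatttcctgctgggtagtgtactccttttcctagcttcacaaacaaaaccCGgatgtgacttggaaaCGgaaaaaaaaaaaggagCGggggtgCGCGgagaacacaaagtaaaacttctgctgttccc
AKR1B1: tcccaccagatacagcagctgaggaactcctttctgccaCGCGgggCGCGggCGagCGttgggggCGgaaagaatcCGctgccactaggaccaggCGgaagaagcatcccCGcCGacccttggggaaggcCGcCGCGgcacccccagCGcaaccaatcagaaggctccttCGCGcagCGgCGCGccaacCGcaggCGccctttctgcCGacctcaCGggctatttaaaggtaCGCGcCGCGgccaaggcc

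The MET, LAMB1 and AKR1B1 windows held 24, 28 and 28 CpGs, the IRF5 window 18 and the GNG11 window 5. By a GC content of at least 55% and an observed over expected CpG ratio of at least 0.6, all but GNG11 were CpG-rich. The letters GGGCGG, a core of SP1 sites, were found on either strand in the same 4 windows, and the letters TATAAA in none of the 5. Of the 459 members, 269 were matched to a RefSeq promoter, of which 66.5% were CpG-rich, close to 65.6% of 11729 matched genes on other chromosomes. GGGCGG was present in 63.9% of the matched members and in 42.3% of all 27305 promoters of the same length, and TATAAA in 5.58% and 11.1%. That larger set includes genes not measured on these arrays, and only 42.0% of it was CpG-rich. The motif shares are therefore not set against like promoters, and nothing particular to the members is read from them. The median log2 ratio of CpG-rich members was -0.98 (OR1) and -0.60 (OR2), and that of CpG-poor members -0.82 and -0.54. Both promoter classes were thus low in both lines. In OR1 the limit of 0.5 was reached by 48.6% of CpG-rich and 37.8% of CpG-poor members, and in OR2 by 15.6% and 21.1%. On the other chromosomes the shares were 7.26% and 10.745% in OR1 and 6.37% and 10.25% in OR2, so the CpG-poor share was the larger there in both lines, as among the members in OR2.

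Most 7q genes were lower in OR1 than in H1975. The median log2 ratio over 455 members with a ratio was -0.81, a ratio of 0.570, and 362 of them (79.6%) were below 1. On the rest of chromosome 7 the median was -0.36, and on the other chromosomes it was 0.06, with 46.4% below 1. By the study's limits of 0.5 and 2, 171 members (37.3%) had a ratio of at most 0.5, against 9.36% of all genes on the array, and 15 (3.27%) had one of at least 2, against 8.93% of all genes. Nothing is read from these shares, since the same ratios chose the stretch. From the 10th to the 90th percentile the members ran from -1.73 to 0.38, and the other chromosomes from -0.90 to 0.97, so the member distribution lay lower as a whole.

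In OR2 the members were lower by a smaller amount. The median log2 ratio over 442 members was -0.53, a ratio of 0.694, and 359 (81.2%) were below 1. The rest of chromosome 7 had a median of -0.28 and the other chromosomes -0.04, with 52.5% below 1. There were 82 members (17.9%) at a ratio of at most 0.5, against 8.41% of all genes, and 13 (2.83%) at one of at least 2, against 7.47% of all genes. Both comparisons use the same H1975 array, so they are given side by side and not as 2 independent readings. Set against the median of the other chromosomes, the member median was lower by a log2 of -0.87 in OR1, a ratio of 0.547, and of -0.49 in OR2, a ratio of 0.714. Directly between the resistant arrays, OR1 over OR2 had a median log2 ratio of -0.28 over the members, and OR1 was the lower array for 306 of 432. The rest of chromosome 7 leaned the same way by less, with a median of -0.15 and OR1 lower for 421 of 656. On the other chromosomes the same median was 0.08. Taken singly, chromosomes 9, 10 and 13 had medians of -0.12, -0.05 and -0.21, and the remaining ones outside chromosome 7 were above 0.

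**Figure D1:**
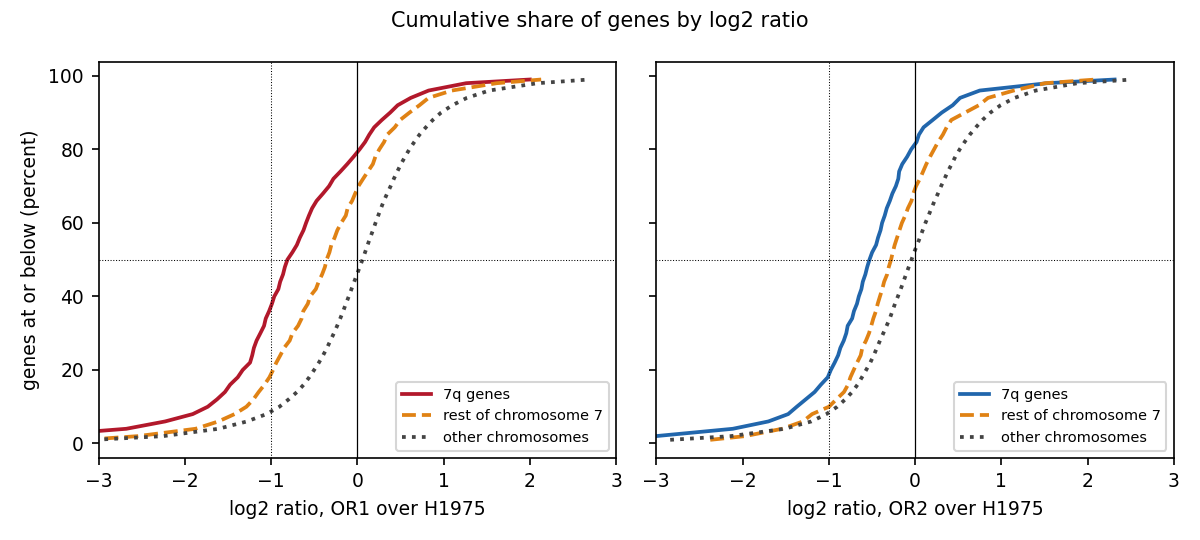
Cumulative share of genes (percent, vertical axis) at or below each log2 ratio (horizontal axis) for the 7q genes, the rest of chromosome 7 and the other chromosomes, in OR1 (left) and OR2 (right). The 7q curve crosses 50% at -0.81 in OR1 and -0.53 in OR2, and the curve of the other chromosomes at 0.06 and -0.04.

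These levels rest on the scaling of the arrays. Against the 7 spike-in probes added to the labeling reaction, the median of all genes in OR1 moved by -0.62 on the log2 scale and the member median to -1.43, while the distance of the members from all other genes stayed near its main value of -0.86. In OR2 the same scaling moved the median of all genes by 0.07.

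The low ratios were not spread evenly along the stretch. Over bins of 10 Mb in OR1, the median log2 ratio was -0.98 from 90 to 100 Mb (111 genes), -0.85 from 100 to 110 Mb (109 genes) and -1.0 from 110 to 120 Mb, where MET lies and 24 genes were measured. It was -0.56 from 120 to 130 Mb, -0.69 from 130 to 140 Mb and -0.73 from 140 to 150 Mb. In OR2 the bins from 90 to 150 Mb had medians of -0.60, -0.55, -0.44, -0.31, -0.52 and -0.60. The bin from 120 to 130 Mb was therefore the highest of the 6 in both lines. Outside the stretch, the bin from 70 to 80 Mb was as low (-0.85 in OR1 and -0.56 in OR2), the bin from 80 to 90 Mb, with 18 genes, had -1.18 and -0.38, and the bin from 60 to 70 Mb had -0.35 and -0.31. The limit at 90 Mb thus lay inside a low run and not at its edge. The bin from 150 to 160 Mb had -0.51 and -0.32. Of 288 bins with at least 10 genes on the other chromosomes, 7 in OR1 and 4 in OR2 had a median of -0.5 or lower, compared with 9 and 5 of the 16 bins on chromosome 7. Those 16 include the 6 bins of the stretch, which was chosen by these same ratios, so nothing is read from this comparison.

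Just outside the lower limit, STEAP2, a metalloreductase gene at chr7:89866537, had ratios of 0.112 in OR1 and 0.269 in OR2, and its neighbor STEAP1 had 0.0843 and 0.164. Just inside it, the ratios of GTPBP10 were 0.396 and 0.636 and those of CLDN12, a claudin of cell junctions, 0.316 and 0.502. At the upper limit, ACTR3C inside had 0.467 and 0.635, and ZBED6CL outside had 1.47 and 1.37. Other genes there went the opposite way: ATP6V0E2-AS1 inside had 1.49 and 1.45, and lnc-LRRC61-1 outside 0.505 and 0.291. Both sides of the upper limit were thus mixed. Within the list of 12 measured genes set to mark both sides of the limits, which also took in CLDN12, 8 were at 0.5 or less in OR1 and 5 in OR2. Over all genes the shares were 9.36% and 8.41%. The list was chosen with earlier results known and reached from SEMA3C at chr7:80372412 to KMT2C at chr7:151832030, so nothing is read from its count.

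**Figure D2:**
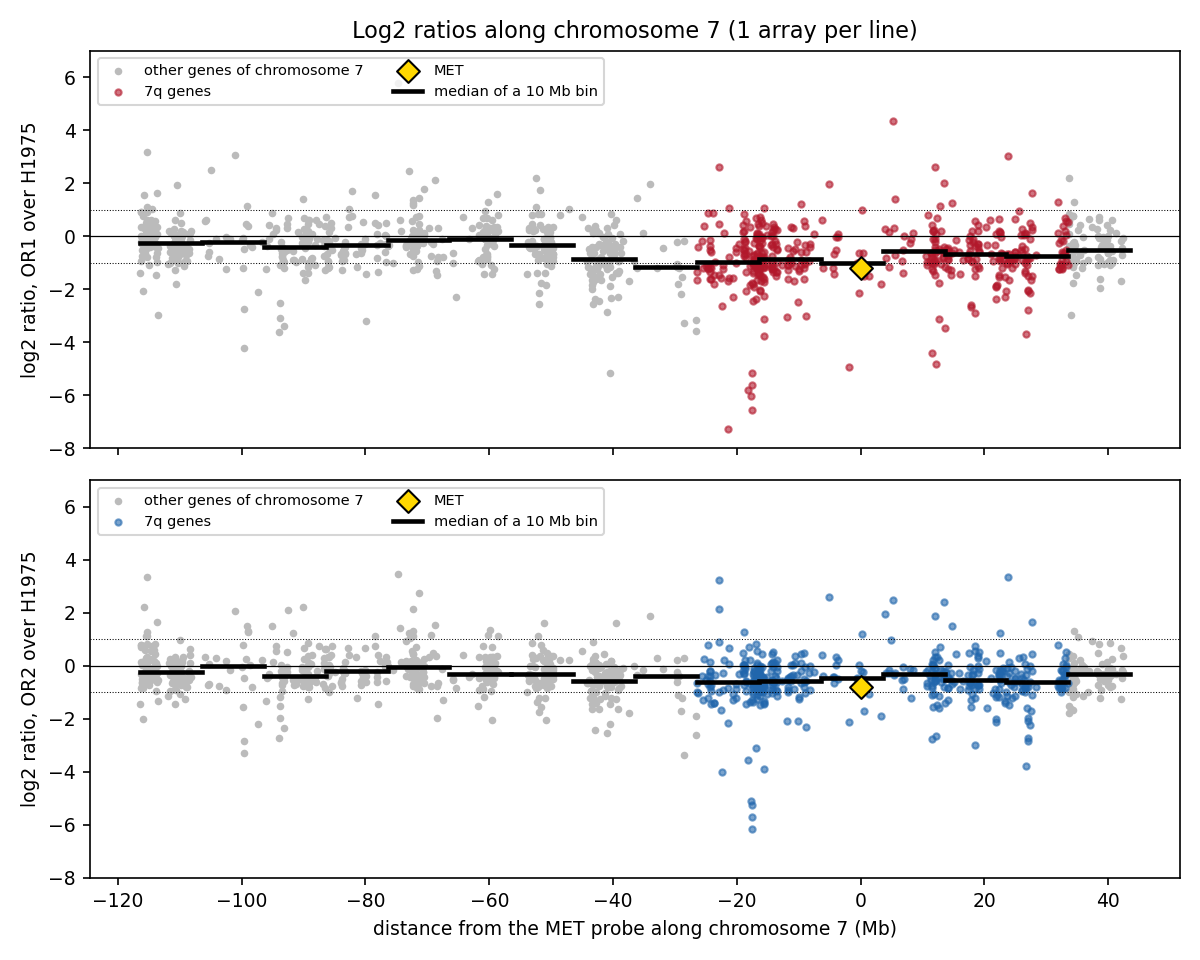
Log2 ratio of each chromosome 7 gene (vertical axis) in OR1 (top) and OR2 (bottom) by its distance from the MET probe in Mb (horizontal axis); black bars are medians of 10 Mb bins with at least 10 genes, and dotted lines mark ratios of 0.5 and 2. The bar over MET lies at -1.0 in OR1 and -0.44 in OR2.

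**Figure D3:**
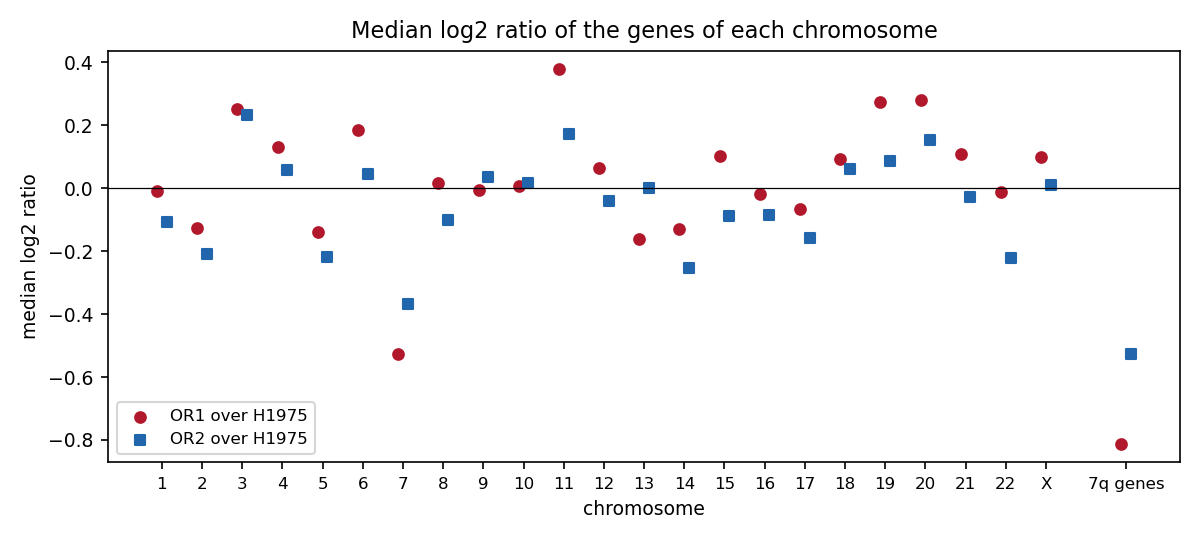
Median log2 ratio of the genes of each chromosome in OR1 (circles) and OR2 (squares), with the 7q genes at the right. Outside chromosome 7 the medians lie between -0.16 and 0.38 in OR1 and between -0.25 and 0.23 in OR2, above -0.81 and -0.53 for the 7q genes.

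MET was measured by 1 probe at chr7:116438290-116438349 (hg19). Its scaled intensity was 73.6 in H1975, against 31.8 in OR1 and 42.8 in OR2. Both resistant arrays were below the parental one, with ratios of 0.432 and 0.582 and log2 ratios of -1.21 and -0.78 at a technical SD of 0.20. MET was thus past the limit of 0.5 in OR1 and not in OR2, and its OR2 ratio became 0.674 after quantile normalization. Its neighbors were low to unequal degrees. CAV2, a caveolin, had scaled intensities of 45.0, 10.2 and 26.3 in H1975, OR1 and OR2, and CAV1, its partner in caveolae, 111, 72.4 and 115. CAV1 in OR2 was therefore level with H1975 (log2 ratio 0.05, technical SD near 0.20) while CAV2 was lower. The next CAV2 probe gave ratios of 0.397 and 0.768 in place of 0.228 and 0.585, so its probes shared the direction and not the size. TES, a focal adhesion protein gene, had log2 ratios of -1.17 and -0.48, CAPZA2, a subunit of the actin capping protein, -1.16 and -0.19, and ST7 -0.65 and -0.22. All 6 measured genes of the MET neighborhood were below 1 in OR1 and 5 of 6 in OR2, with medians of -1.17 and -0.35, beside -0.81 and -0.53 over all members. The 5 others on that list were not well above background on any array. An exception, picked out after its values were seen, was ST7-AS1, a noncoding RNA gene antisense to ST7. Its scaled intensity was 0.734 in H1975, against 1.47 in OR1 and 1.68 in OR2.

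Ranked by the less changed line, the lowest ratios came from a short block at chr7:98771213-98908724. The block was picked out by this ranking, and a lowest group is found in any set of values. In OR1 alone PON3, outside the block, was lower, with a ratio of at most 0.00652. KPNA7, an importin alpha gene at chr7:98771213-98771272, had a scaled intensity of 6.24 in H1975, 0.184 in OR2 and 0.0944 in OR1, the last not well above background. Its OR1 ratio was at most 0.0151, and its OR2 ratio was 0.0294. MYH16, a myosin heavy chain pseudogene at chr7:98895535-98895594, had 2.94 in H1975 and was not well above background in either resistant line, so its ratios were at most 0.0281 and 0.0265. A transcript known by an Ensembl number only, at chr7:98908665-98908724, had 33.2 in H1975 and 0.351 and 0.462 in the resistant lines, ratios of 0.0106 and 0.0139. A second one at chr7:98903595-98903654 had 4.08 in H1975 and was not well above background in the others. Since MYH16 and this second transcript passed through H1975 alone, they could only be lower in the resistant lines. The MYH16 probe and those of both Ensembl transcripts lie close together and may share transcripts, so they are not separate evidence. On either side of this block the ratios were nearer to those of the other members. SMURF1, a ubiquitin ligase gene, had 0.282 and 0.394 on the lower side. ARPC1A and ARPC1B, subunits of the actin-nucleating Arp2/3 complex, had 0.298 and 0.408 and 0.182 and 0.386 on the upper side. A noncoding gene between SMURF1 and KPNA7 had ratios of 1.26 and 1.18, so the block was not continuous with SMURF1.

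Other members with the lowest ratios in their less changed line lay apart from each other. IRF5, an interferon regulatory factor, had scaled intensities of 16.7, 0.596 and 2.64 in H1975, OR1 and OR2, and OR1 lay below OR2. NPTX2, a neuronal pentraxin, had 4.60 in H1975, 0.391 in OR2 and no signal well above background in OR1, so its ratio was at most 0.0180 in OR1, and 0.0851 in OR2. EPHA1, an ephrin receptor, had 1.06 in H1975 and was not well above background in either resistant line, with ratios of at most 0.0781 and 0.0737. STRA8, known for entry into meiosis, was likewise above background in H1975 alone, at 0.617. PRRT4 had 1.76 in H1975 and 0.262 in OR2, and was not well above background in OR1. That H1975 was the highest of the 3 arrays in all of these follows from their choice by low ratios in both lines.

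The members with the highest ratios stood against the direction of the stretch. DENND2A, a DENN domain gene of Rab regulation, had a scaled intensity of 0.577 in the parental line and 4.74 and 5.97 in OR1 and OR2, ratios of 8.21 and 10.3. GNG11, a G protein gamma subunit, had 4.48, 27.5 and 42.8, ratios of 6.13 and 9.55. FLNC, the actin crosslinker filamin C, had 1.01, 6.16 and 3.75. Its other probe gave larger ratios, 20.5 and 11.9 in place of 6.08 and 3.70, so its size is uncertain and its direction was the same at both. CPA4, a carboxypeptidase, had 0.334, 1.35 and 1.8. PODXL, the sialomucin podocalyxin, had 12.5, 30.1 and 35.6. AASS, an enzyme of lysine breakdown, and DOCK4, an activator of Rac, were not well above background in H1975. The AASS ratio was at least 20.3 in OR1 and 5.56 in OR2, and the DOCK4 ratio at least 3.97 and 6.13. That both resistant arrays were above the parental one for each of these genes follows from their choice by high ratios in both lines.

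Some members differed between OR1 and OR2 by more than most, here named among those well above background in both lines. Outside that rule, OR1 was at most 0.0290 of OR2 for PON3 and at most 0.211 for NPTX2. MDFIC, a MyoD family inhibitor domain gene, had a scaled intensity of 5.57 in the parental line and 0.183 and 1.28 in OR1 and OR2, so OR1 was at 0.143 of OR2. MEST, a paternally expressed imprinted gene, had 2.46, 0.221 and 0.937, and OR1 was at 0.236 of OR2, close to the value of 0.226 for IRF5. In the other direction, AASS was 3.66 times as high in OR1 as in OR2. PTN, the growth factor pleiotrophin, had 0.647, 0.518 and 0.217, so that OR2 and not OR1 stood apart. The noncoding lnc-SPAM1-4 had 0.234, 0.218 and 0.102.

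**Figure D4:**
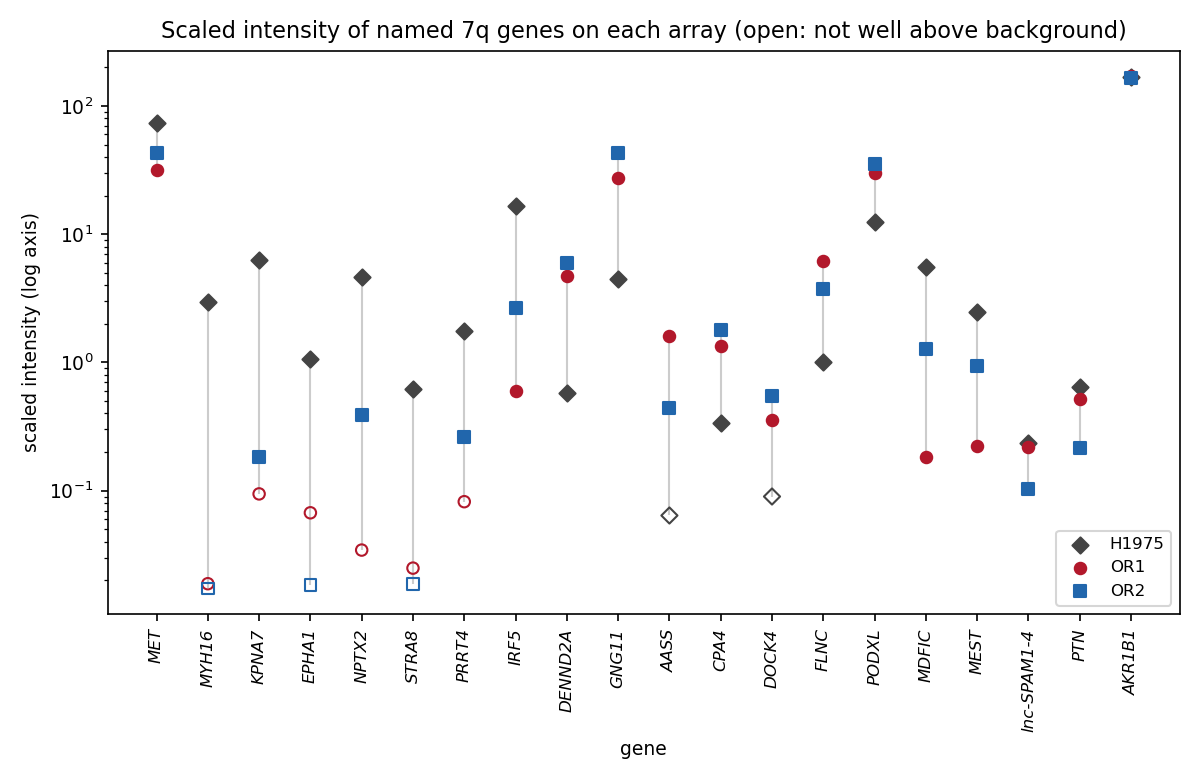
Scaled intensity (log axis) of MET, members with the lowest and highest ratios, those that differ most between OR1 and OR2, and AKR1B1, on the H1975 (diamonds), OR1 (circles) and OR2 (squares) arrays; open symbols are not well above background. IRF5 runs from 16.7 in H1975 to 0.596 and 2.64, GNG11 from 4.48 to 27.5 and 42.8.

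The lists below were grouped by function. Their counts stand beside 79.6% (OR1) and 81.2% (OR2) below 1 over all members, and beside 37.3% and 17.9% at 0.5 or less over the members and 9.36% and 8.41% over all genes. Nothing particular to a list is read from them. Of 13 measured kinase genes, 12 were below 1 in OR1 and 11 of 12 with a ratio in OR2, and 6 and 2 had ratios of at most 0.5. BRAF had scaled intensities of 3.33, 1.07 and 1.19 in H1975, OR1 and OR2, ratios of 0.320 and 0.358. LMTK2 was close to even, with ratios of 0.885 and 0.916. PDK4, the kinase that inhibits pyruvate dehydrogenase, was below 1 in OR1 (0.584) and above it in OR2 (1.59). CDK6 had ratios of 0.662 and 0.524. The kinase median was -0.91 in OR1 and -0.44 in OR2. WEE2, a meiotic kinase, was measured in OR1 alone.

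Genes of caveolae, the cytoskeleton and the matrix held both low and high members. Of 21 measured, 11 had a ratio of at most 0.5 and 2 of at least 2 in OR1, and 8 and 4 in OR2, with medians of -1.08 and -0.77. Among the lowest was COL1A2, a chain of type I collagen. Its scaled intensity was 1.27 in H1975 and 0.205 in OR1, and it was not well above background in OR2, where its ratio was at most 0.0615. LAMB1, a laminin beta chain whose promoter is shown above, had 6.97, 0.866 and 1.39. Its next probe gave ratios of 0.963 and 0.566 in place of 0.124 and 0.200. By that probe LAMB1 was thus close to even in OR1 and less low in OR2. FLNC and PODXL were the highest of this list in OR1. FZD1, a Wnt receptor and the only one of 4 Wnt and Hedgehog genes measured, had ratios of 0.435 and 0.409.

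The imprinted genes had no common direction. Of 6 measured, 3 were below 1 in each line, with medians of -0.26 and -0.02, nearer to 0 than the medians over all members. MEST was low in both lines, as given above, and SGCE, a sarcoglycan gene, had ratios of 0.474 and 0.824. CPA4 was at 4.03 and 5.38. TFPI2, an inhibitor of serine proteases, had a scaled intensity of 0.376 in the parental line and 0.518 and 1.67 in OR1 and OR2, a ratio past 2 in OR2 alone. PEG10, a retrotransposon-derived imprinted gene next to SGCE, was close to even at 22.9, 25 and 26.4, where spike-in scaling put its OR1 log2 ratio at -0.48.

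The aldo-keto reductases split. AKR1B1, aldose reductase, had scaled intensities of 169, 170 and 164 on the 3 arrays, level within the technical error under this scaling, with log2 ratios of 0.01 and -0.04 against -0.59 and 0.03 under spike-in scaling. AKR1B10, which reduces retinal and other aldehydes, had 9.23, 1.52 and 3.74, and AKR1B15 6.58, 1.02 and 2.22. Those 2 genes are near-identical copies whose probes may share transcripts, so they are not separate evidence.

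All 13 listed genes of DNA replication and chromatin were measured, and 12 were below 1 in each line, 8 of them at 0.5 or less in OR1 and 3 in OR2. The replicative helicase subunit MCM7 had scaled intensities of 327, 138 and 153, and EZH2, the methyltransferase of Polycomb complex PRC2, 11.3, 4.81 and 6.37. The lowest were KDM7A, a histone demethylase, with ratios of 0.206 and 0.40, and TRIM24, a bromodomain protein, with 0.273 and 0.446. CUX1, a homeodomain factor, was close to even at 11.3, 11.6 and 12.0, though its next probe had ratios of 0.729 and 0.747 and spike-in scaling put its OR1 log2 ratio at -0.57. POT1, which caps telomeres, had 0.834 and 0.927.

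Of 12 mitochondrial genes, all were below 1 in OR1 and 11 in OR2, with medians of -0.87 and -0.61, and 3 and 1 were at 0.5 or less, which as a share is below that of all members. SLC25A13, the aspartate-glutamate carrier citrin, had the lowest ratios, 0.337 and 0.414, and CHCHD3, a protein of mitochondrial cristae, 0.377 and 0.549. PMPCB, a subunit of the presequence protease, was dim, at 0.152, 0.109 and 0.175. Of 12 genes of the secretory pathway, all were below 1 in both lines, with medians of -1.0 and -0.63. AP1S1, an adaptor complex subunit, had scaled intensities of 26.6, 8.11 and 10.5, and BET1, a SNARE of transport to the Golgi, 6.57, 2.36 and 3.29, although its probes disagreed in OR2 by more than 1 on the log2 scale. DNAJB9, an endoplasmic reticulum chaperone, was the closest to even, with ratios of 0.810 and 0.993. The proteolysis and ubiquitin list had 8 of 9 measured genes below 1 in OR1 and all 8 with a ratio in OR2, and 6 and 3 at 0.5 or less. FBXO24, an F-box gene, was the lowest at 0.239 and 0.356.

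The 6 antiviral genes were all below 1 in both lines, 5 of them at 0.5 or less in OR1 and 4 in OR2, with medians of -1.50 and -1.39. After IRF5, the lowest in OR1 was SAMD9, a restriction factor of poxviruses, with scaled intensities of 1.11, 0.318 and 0.423. TRIM56, a ubiquitin ligase of antiviral signaling, had ratios of 0.430 and 0.509. ZC3HAV1, the zinc finger antiviral protein ZAP, was the nearest to even, at 0.569 and 0.759.

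Nearly all genes of the zinc finger clusters were below 1, though some only slightly. The 8 genes at 7q22 had medians of -0.81 and -0.32, with 3 at 0.5 or less in OR1 and 0 in OR2, and the 10 at 7q36 -0.79 and -0.70, with 4 and 0. In OR2 the share at 0.5 or less was thus below the 17.9% of all members and the 8.41% of all genes. The 7q22 median in OR2 was also nearer to 0 than the -0.53 of all members. In the 7q36 cluster the ratios ran from 0.429 for ZNF282 to 0.90 for ZNF425 in OR1, and no gene was above 1. ZNF425 and ZNF777 were close to even, with ratios of 0.90 and 0.902 and of 0.881 and 0.899. ZSCAN21 at 7q22 was the only gene above 1, with ratios of 1.05 and 1.48.

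Metabolic genes also ran both ways. Of 14 measured, 5 were at 0.5 or less and 2 at 2 or more in OR1, and 2 and 2 in OR2. PON3, a paraoxonase, had a scaled intensity of 12.7 in H1975 and 2.85 in OR2 and was not well above background in OR1, where its ratio was at most 0.00652. PON2, its neighbor in the paraoxonase cluster, had 32.7, 10.1 and 18.5. AASS was the highest in both lines. The 4 CYP3A genes were not well above background on any array. Of 9 transporter and channel genes, 1 was at 0.5 or less in each line. This was ATP6V0A4, a proton pump subunit, with scaled intensities of 1.07, 0.205 and 0.247. ATP6V0E2, another subunit of that pump near the upper end of the stretch, was even at 1.44, 1.49 and 1.45, but at an OR1 log2 ratio of -0.55 under spike-in scaling. The only membrane mucin measured, MUC3A, had ratios of 1.42 and 0.964.

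**Figure D5:**
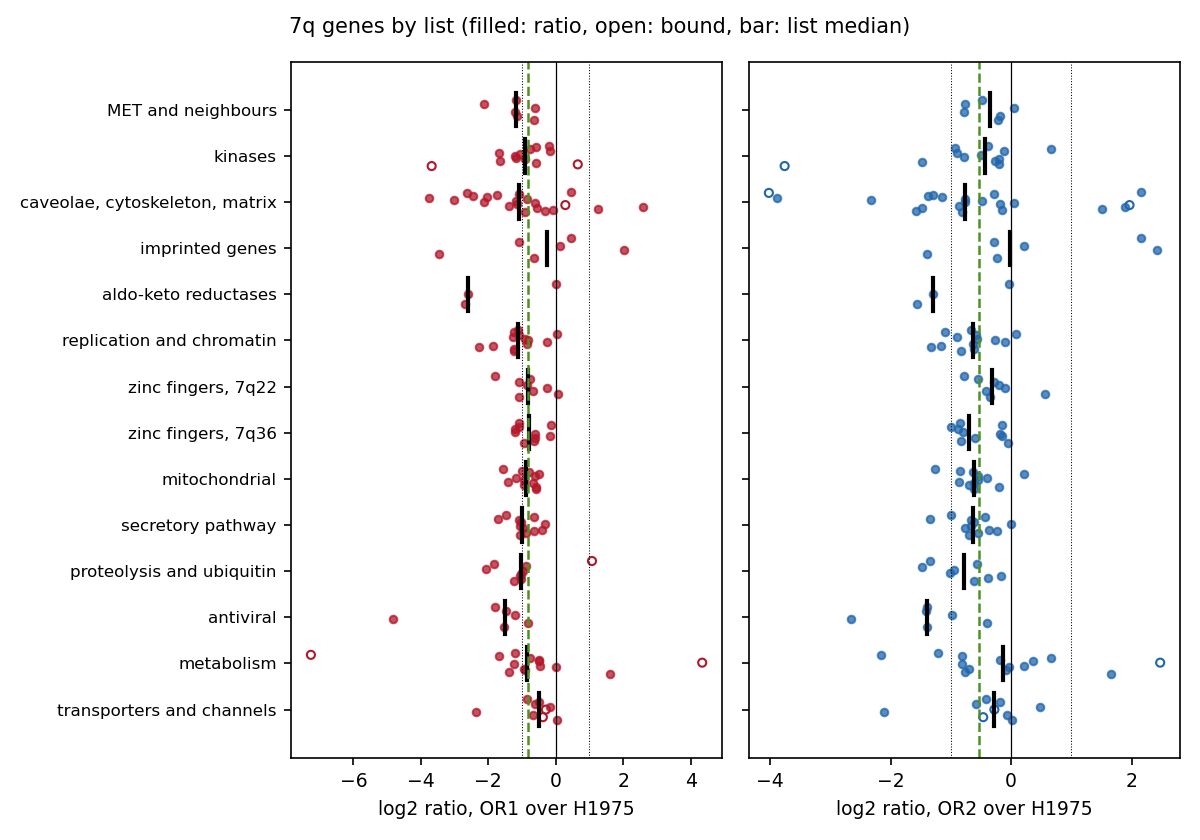
Log2 ratio (horizontal axis) of the measured 7q genes of each list in OR1 (left) and OR2 (right); filled points are ratios, open points bounds, black bars list medians, and the dashed line the median over all 7q genes. The antiviral list has the medians -1.50 and -1.39, and the imprinted list -0.26 and -0.02.

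The direction was also read from probes that did not stand for the gene. In 88 members at least 2 probes were well above background on all arrays. The next brightest probe was below 1 in 80 of them in OR1 and 76 in OR2, with medians of -0.91 and -0.48, compared with -1.0 and -0.58 for the brightest probes of the same genes. Of 44 genes at 0.5 or less by the brightest probe in OR1, 32 were so by the next, and of 12 in OR2, 5 were. These probes come from the same arrays and genes, so they bear on probe error alone. Both probes had the same direction in 81 of the 88 genes in OR1 and in 77 in OR2. In each line 7 genes differed by more than 1 on the log2 scale between their probes, among them LAMB1, FLNC and ING3 in both, ZNF789 in OR1, and BET1 and CLDN12 in OR2. The ING3 probes pointed opposite ways, with ratios of 0.560 and 0.827 by the brightest and 1.71 and 1.87 by the next.

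Bright and dim members were both low. With all genes ranked into 3 equal classes by mean intensity, the member medians in OR1 were -0.53 for dim, -0.78 for middle and -0.91 for bright genes, beside 0.11, 0.06 and 0.03 on the other chromosomes. In OR2 they were -0.46, -0.42 and -0.61, beside -0.05, 0.03 and -0.09. Members with a RefSeq mRNA accession had medians of -0.91 and -0.58, those with a RefSeq noncoding accession -0.70 and -0.44, and the others -0.52 and -0.40.

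All 6 epithelial markers were well above background on each array, with a summed scaled intensity of 2480 in the parental line and 1071 and 1064 in OR1 and OR2. The sum is mostly keratin, and its members differed: KRT8 had ratios of 1.12 and 0.964 and KRT18 0.884 and 0.806. KRT7 had 0.164 and 0.170 and KRT19 0.463 and 0.492, so the keratins were not even as a group. The adhesion genes CDH1 and EPCAM had 0.0205 and 0.0800, and 0.0370 and 0.0725. Of 5 fibroblast markers, 1, 2 and 1 were well above background, with sums of 3.0, 4.76 and 0.611. Of 3 lung lineage markers 2 were above background on each array, with sums of 5.54, 1.53 and 7.63, and the lineage factor NKX2-1 had ratios of 0.252 in OR1 and 1.36 in OR2. The 3 leukocyte and 3 endothelial markers had summed intensities between 0.565 and 2.47. The part of these markers in the 7q ratios was not tested.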

How the data were processed

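The authors labeled RNA of the 3 lines with Cy3 and hybridized each to its own Agilent SuperPrint G3 array on a shared slide. The deposited scanner files hold each spot's intensity after the authors' feature extraction (Agilent Feature Extraction 10.7.1.1 in the file headers, 9.5.1.1 in the submitters' processing notes), which subtracts background and spatial trends within an array and does not scale between arrays. A second deposited table holds normalized intensity per probe. The method behind it is not given in the sources used here, and 99% of its log2 values lay within 0.0033 of quantile-normalized scanner intensities after a constant shift.

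Control probes and outlier spots (45 to 61 per array) were left out, spots of the same probe were averaged on the log2 scale, and the 75th percentile over the 58200 probes was subtracted from each array. No spot was saturated, and 45.6 to 45.9% of probes were well above background. A gene's probe was the one with the highest mean over the arrays. A side not well above background was set to the lowest scaled intensity well above background on that array, or its own if higher. Probe positions are those of the files (hg19) and 303 probes without one were left out. RefSeq tables (GRCh38.p14) gave names and promoters only: of 330 members with a RefSeq accession 317 were found, 294 with the same symbol. The steps were tested on simulated data. The alternatives were other scalings, background correction, filters, probe rules, limits and bins. With 1 array per line there was no test, and the number of arrays limits the precision.

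The members, gene lists and rules were chosen with earlier results of these data known. Named genes are MET and its measured neighbors, up to 4 examples per list, the 8 members lowest and the 8 highest in their less changed line, and, in each direction, the 3 with the most extreme ratio of OR1 to OR2 among members well above background in both; a gene outside this rule was chosen after its values were seen. 90 members named by an interval, clone or number are not named, and some items are not reported here. Python 3.11.15 (numpy 2.4.6, pandas 2.3.3) was used, and R 4.3.3 with limma 3.58.1 for normexp.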

Additional observations from a re-analysis of the deposited data

How the results depend on the processing

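No paired analysis was possible because each line has 1 array. Under the 17 alternatives, 142 of 178 main values stayed within the technical SD (or, for counts, within 1.5 times). For medians, those of bins included, this tolerance was the median technical SD of a single gene ratio, near 0.205. That is loose for a median over many genes. The member median stayed below 0 in both lines, from -1.43 to -0.18 in OR1 and from -0.58 to -0.19 in OR2. The main values are those of the report. Without a filter on dim probes, which counts 848 genes with most of them at background, the medians were -0.18 and -0.19, their distances from all other genes -0.24 and -0.15, OR2 had 124 genes at 0.5 or less, and there were 43 and 37 genes at 2 or more. OR1 over OR2 then turned to 0.045, the highest 10 Mb bin was 0.044 in OR1 and -0.048 in OR2, and 3 bins in OR1 turned, from 110 Mb (0.044), 120 Mb (0.044) and 140 Mb (0.037). With normexp background correction the OR1 median was -0.51 and its distance -0.56, the highest OR1 bin was -0.20, 48 genes were at 0.5 or less in OR2, and 7 were at 2 or more in each line. With spike-in scaling OR1 had a median of -1.43, 309 genes at 0.5 or less, 7 at 2 or more, a highest bin of -1.20 and a MET ratio of 0.285, and OR1 over OR2 was -0.96. It was -0.51 without scaling. The MET ratio in OR2 was 0.674 with quantile normalization and with the authors' table. Genes well above background on all 3 arrays gave 147 and 58 at 0.5 or less, in place of 171 and 82, and 9 and 8 at 2 or more. Limits of 4 and 0.25 gave 36 and 22 low and 5 and 6 high genes, and limits of 1.5 and its inverse 278 and 202 low and 31 and 22 high. In bins of 5 Mb the highest OR1 median was -0.10. Median scaling moved the median of all genes in OR1 by -0.11 and no scaling by -0.19. Beyond the constructions named, the cause of these moves was not tested. Of 3710 further values of bins and named genes, 3399 kept within their technical SD, 308 moved past it, 140 of them with spike-in scaling, and those 3 bins turned. Sign changes of genes within the limits of 0.5 and 2 are not counted as turned: there were 47 such values over 21 gene ratios, 15 of them past the technical SD, and no gene ratio past a limit changed sign. For dim genes the signal sets a limit: below the lowest intensity well above background, near 0.08 of the 75th percentile, a ratio is a bound.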

Other observations

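A second local run, noticed after the values were seen, lay around TCAF2, a regulator of TRP channels. Its scaled intensity was 1.40 in the parental line and 0.343 and 0.329 in OR1 and OR2, and its relative TCAF1 had 1.98, 0.470 and 1.14. The 5 members from chr7:143342783 to 143526270, TCAF2 among them, had a median log2 ratio of -2.09 in OR2. The TCAF genes are close copies, so their probes may share transcripts. Runs of this length were ranked over all members, so an extreme one is found in any set of values.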
